A study of Ovis aries with 12 samples.

Results

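The circadian clock genes ARNTL, CLOCK, CRY1, CRY2, NR1D1 and BHLHE40, the PAR bZIP transcription factor genes DBP, TEF and HLF, and NFIL3, a bZIP repressor that binds the same DNA elements as those factors, were followed in the right ventricle of lambs. They are the 10 rows of the deposited count table that carry these names, of 27054 rows in all, and all 10 passed the filter on low counts. The first 6 are treated as the core clock, and DBP, TEF, HLF and NFIL3 as its output.

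Messenger RNA of snap-frozen right ventricular free wall was sequenced in 12 libraries of sheep (Ovis aries). The shunt group held 4 libraries of lambs aged 4 to 6 weeks in which an aortopulmonary graft had been placed by surgery before birth, which gave a left-to-right shunt and a pressure load on the right ventricle. The control group held 4 libraries of lambs of the same ages with no shunt described, and the fetal group held 4 libraries of fetal lambs, with no gestational age in the labels. The labels give neither the time of day at which tissue was taken nor whether each library came from its own animal, so the p-values reflect only how these libraries vary.

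In the mammalian clock, ARNTL (also called BMAL1) and CLOCK form a dimer that drives transcription from E-box elements, and PER and CRY proteins, themselves products of that dimer, repress it. NR1D1 (REV-ERB alpha) closes a further loop by repressing ARNTL. DBP, TEF and HLF are activators that bind D-box elements, NFIL3 (E4BP4) represses through the same elements, and in rodent heart transcripts of ARNTL and of NR1D1 and DBP peak at opposite times of day.

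Total counts were 24944197 to 42774036 in shunt, 20041416 to 44946875 in control and 19111348 to 27330975 in fetal libraries. The 13 mitochondrially encoded genes took 61.1% ± 13.1 of the counts in shunt, 46.1% ± 2.88 in control and 33.1% ± 6.39 in fetal libraries (SD, n = 4 each). Libraries shunt 1 and shunt 2 stood apart, with 72.6% and 71.4% mitochondrial counts, and left 7152139 and 7140136 other counts. For the 10 genes, results on the shunt group are therefore also given without that pair of libraries. Levels are given as CPM, the share of counts on a per-million scale after TMM scaling (a trimmed mean of log ratios between libraries), so they show shares of the RNA sampled and may be compared between libraries but not between genes, since no gene lengths were used. When scaled by library totals alone, all genes had a median log2 change of -0.59 for shunt against control, -1.02 for shunt against fetal and -0.41 for control against fetal, and under TMM it was within 0.1 of 0. Of 15 cardiomyocyte markers 4 carried a name in the table (MYL2, TPM1, MYOZ2 and MB), and their summed level was 19915 to 36167 CPM in shunt, 26166 to 32999 CPM in control and 20389 to 30425 CPM in fetal libraries. NPPA, an atrial marker that ventricle also expresses, ranged from 9.85 to 3589 CPM in shunt, 0.689 to 49.7 CPM in control and 60.6 to 373 CPM in fetal libraries. Markers of other cell types were measured by the few that carried a name and passed the filter on low counts, and none of 4 red blood cell markers did. The summed smooth muscle and pericyte markers (CNN1 and RGS4) had 1.497 to 16.4 CPM in shunt, 3.77 to 12.8 CPM in control and 18.1 to 34.7 CPM in fetal libraries, with no overlap between fetal libraries and either other group. The adipocyte markers (ADIPOQ and FABP4) had 4.08 to 113 CPM in shunt, 0.634 to 8.60 CPM in control and 0.0471 to 2.11 CPM in fetal libraries. Most of this sum was FABP4 in every shunt and control library. The endothelial markers (KDR and AQP1) had 52.5 to 134 CPM in shunt, 61.4 to 84.8 CPM in control and 107 to 118 CPM in fetal libraries, and the myeloid markers (CD14, MRC1 and ITGAM) had 9.97 to 23.7 CPM in shunt, 14.5 to 26.7 CPM in control and 5.58 to 13.5 CPM in fetal libraries. The fibroblast marker DCN had 242 to 524 CPM in shunt, 340 to 437 CPM in control and 399 to 527 CPM in fetal libraries, and the lymphocyte markers (CD3E, CD4 and GNLY) had 1.41 to 2.29 CPM in shunt, 1.04 to 2.30 CPM in control and 0.176 to 2.57 CPM in fetal libraries. Of all these markers, FABP4 and GNLY were called higher in shunt against fetal libraries (edgeR adjusted p = 0.00816 and 0.0286), and MB and GNLY were called higher in control against fetal libraries (edgeR adjusted p = 0.0218 and 0.0417). The part of these markers in the results on the clock genes was not tested.

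In the edgeR fit of all 12 libraries every call among these genes involved the shunt group. HLF was lower in shunt than in control ventricles, at 0.406 ± 0.253 CPM in shunt and 2.41 ± 0.898 CPM in control libraries (SD, n = 4 each). NFIL3 was higher and CRY1 lower in shunt than in fetal ventricles. Over 20 alternative fits these calls held in 9 for HLF, 14 for NFIL3 and 4 for CRY1. HLF was called between control and fetal libraries in 3 of those fits. In fits of only the 2 groups compared, none of these genes was called in either shunt contrast. TEF lay below every control and fetal library in all 4 shunt libraries without passing the test, and the mean levels of ARNTL, NR1D1, CRY2 and DBP differed between any 2 groups by less than the larger SD of the pair.

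Calls came from edgeR's quasi-likelihood test over 13065 genes, with Benjamini-Hochberg adjustment and a threshold of 0.05. For shunt against control 1 of the 10 genes was called, against 4.00% of all genes tested. For shunt against fetal 2 of the 10 were called, against 15.7% of all genes. For control against fetal 0 of the 10 were called by edgeR, against 5.17% of all genes. In that last comparison 1 of the 10 had an unadjusted p under 0.05, and DESeq2's Wald test called 1. Groups did not overlap for 3 of the 10 genes in shunt against control, where 12.1% of all genes did not overlap. They did not overlap for 2 of the 10 in shunt against fetal, against 19.0% of all genes, and for 0 of the 10 in control against fetal, against 19.3%. The shares for shunt against fetal and control against fetal are thus near or below those of all genes. In bulk tissue fewer cells of a type and less RNA per cell cannot be told apart.

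The median log2 change of the 6 core clock genes was -0.24 for shunt against control, -0.35 for shunt against fetal and 0.01 for control against fetal. For DBP, TEF and HLF it was -1.15 for shunt against control, -1.07 for shunt against fetal and 0.08 for control against fetal. The median over all genes tested was 0.01 for shunt against control, -0.01 for shunt against fetal and -0.00 for control against fetal. Each pair of these comparisons shares the libraries of 1 group. The median of DBP, TEF and HLF is the value of TEF in each comparison. With shunt 1 and shunt 2 left out TEF was still the middle gene, at -0.69 relative to control and -0.60 relative to fetal libraries. The core clock median then lay between CRY1 and CRY2. These were at -0.55 and -0.50 relative to control, and at -0.62 and -0.29 relative to fetal libraries. The core clock and output medians were thus closer together without that pair of libraries.

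**Figure D1:**
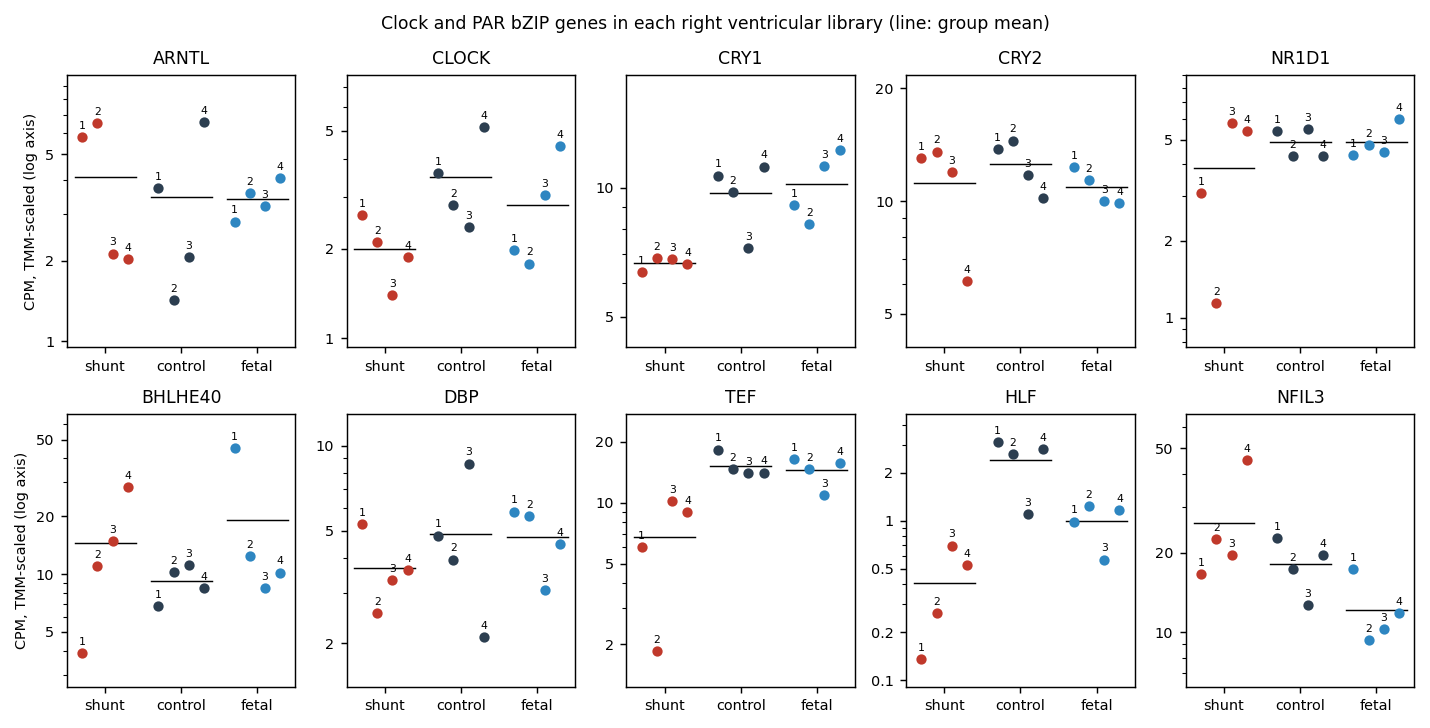
Level of each gene in CPM (TMM-scaled, log axis) in the 4 shunt, 4 control and 4 fetal libraries. Each point is a library with its replicate number, and the line is the arithmetic mean of the group. All 4 shunt libraries lie below all control libraries for HLF, TEF and CRY1, while ARNTL has shunt and control libraries at both ends of its range.

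HLF (ENSOARG00000005301), hepatic leukemia factor, is the PAR bZIP activator with the fewest counts here. It had 0.137, 0.264, 0.699 and 0.524 CPM in shunt 1 to 4, from 2, 3, 23 and 14 counts. The control libraries 1 to 4 had 3.12, 2.62, 1.10 and 2.81 CPM, from 156, 57, 40 and 83 counts. Fetal 1 to 4 had 0.989, 1.23, 0.571 and 1.17 CPM, from 42, 38, 13 and 40 counts. Every shunt library lay below every control library, and the fetal libraries overlapped both other groups, with fetal 3 below shunt 3 and fetal 2 above control 3.

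The log2 change of HLF in shunt against control was -2.46 ± 0.493 (SE; 95% interval -3.51 to -1.40; edgeR adjusted p = 0.0344), and HLF ranked 65 among all genes by p. Summed over the 4 libraries of each group, HLF had 42 counts in shunt and 336 in control, a ratio per scaled library size of 0.201 (exact 95% interval 0.142 to 0.277, counting error only). With shunt 1 and shunt 2 left out, the log2 change was -1.99 and the call was lost (adjusted p = 0.0936). The fit of only the 2 groups compared gave -2.47 with an adjusted p of 0.117. Leaving out shunt 1, shunt 2, control 1, control 2, control 4, fetal 1, fetal 2 or fetal 4 alone also ended the call, with log2 changes from -2.47 to -2.20 and adjusted p from 0.0503 to 0.120, and over all 20 alternatives the call held in 9 with the direction kept in each.

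Between control and fetal ventricles the HLF values pointed the other way without passing the test. It averaged 2.41 ± 0.898 CPM in control and 0.992 ± 0.299 CPM in fetal libraries (SD, n = 4 each), a log2 change of 1.27 ± 0.452 that was not called (edgeR adjusted p = 0.131). It was called in 3 of the 20 alternatives, with an adjusted p of 0.0356 in the fit of only the 2 groups compared, 0.0395 without shunt 1 and shunt 2, and 0.0495 in DESeq2's Wald test. In shunt against fetal the log2 change was -1.18 ± 0.490 (adjusted p = 0.110), and shunt 3 lay above fetal 3. Without shunt 1 and shunt 2 it was -0.72 (adjusted p = 0.392). By mean level the groups ran from shunt, the lowest, through fetal to control, and neither neighbouring step passed the test.

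TEF (ENSOARG00000018238), thyrotroph embryonic factor, is a PAR bZIP activator found in many tissues. It had 6.01, 1.85, 10.2 and 8.99 CPM in shunt 1 to 4. In control 1 to 4 it had 18.3, 14.6, 14.0 and 14.1 CPM, and fetal 1 to 4 had 16.4, 14.6, 10.9 and 15.7 CPM. Every shunt library lay below every control and every fetal library, and shunt 2 was the lowest by a wide margin. The log2 change in shunt against control was -1.15 ± 0.351 (95% interval -1.90 to -0.40; edgeR adjusted p = 0.0671). In shunt against fetal it was -1.07 ± 0.351 (95% interval -1.82 to -0.32; adjusted p = 0.0524). Control against fetal gave a log2 change of 0.08 ± 0.343 (95% interval -0.65 to 0.81; adjusted p = 0.937).

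The TEF difference depended in size on shunt 1 and shunt 2. Without them the log2 change was -0.69 in shunt against control (edgeR adjusted p = 0.139) and -0.60 in shunt against fetal (adjusted p = 0.0839). TEF was called in shunt against control in 3 of the 20 alternatives: without shunt 3 (-1.41, adjusted p = 0.0283), without shunt 4 (-1.30, adjusted p = 0.0370) and in DESeq2's Wald test (-1.15, adjusted p = 0.0159). In shunt against fetal it was called in 6 of the 20, among them without shunt 2 (-0.78, adjusted p = 0.0466), without shunt 3 (-1.33, adjusted p = 0.0218) and without shunt 4 (-1.22, adjusted p = 0.0371).

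DBP (ENSOARG00000011967), the D-box binding protein and the PAR bZIP factor whose transcript cycles most strongly in rodent tissues, had 5.26, 2.55, 3.34 and 3.63 CPM in shunt 1 to 4. Control 1 to 4 had 4.80, 3.95, 8.63 and 2.10 CPM, and fetal 1 to 4 had 5.84, 5.62, 3.08 and 4.48 CPM. The control libraries spanned a 4.11-fold range that held all shunt and fetal values, with control 3 highest and control 4 lowest of all 12 libraries. Mean levels were 3.70 ± 1.14 CPM in shunt, 4.87 ± 2.75 CPM in control and 4.75 ± 1.27 CPM in fetal libraries (SD, n = 4 each). No contrast was called: the log2 change was -0.40 ± 0.375 for shunt against control (edgeR adjusted p = 0.506), -0.36 ± 0.375 for shunt against fetal (adjusted p = 0.526) and 0.04 ± 0.368 for control against fetal (adjusted p = 0.975). Leaving out shunt 1 and shunt 2 gave -0.51 in shunt against control and -0.46 in shunt against fetal, and leaving out control 3 gave 0.03 in shunt against control, none of them called.

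NFIL3 (ENSOARG00000003352), the repressor that competes with PAR bZIP activators for D-box elements and is also induced by cytokines and stress, had 16.7, 22.5, 19.6 and 45.1 CPM in shunt 1 to 4. In control 1 to 4 the levels were 22.7, 17.3, 12.7 and 19.7 CPM, and fetal 1 to 4 had 17.4, 9.29, 10.2 and 11.8 CPM. Shunt 4 was the highest library, and fetal 1 lay above shunt 1, so that shunt and fetal libraries overlapped. The log2 change in shunt against fetal was 1.09 ± 0.308 (95% interval 0.44 to 1.75; edgeR adjusted p = 0.0289). It was 0.52 ± 0.305 in shunt against control (adjusted p = 0.271) and 0.57 ± 0.305 in control against fetal (adjusted p = 0.343). By mean level the groups ran from shunt, the highest, through control to fetal, and again no neighbouring step passed the test.

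The NFIL3 call in shunt against fetal held in 14 of the 20 alternatives and was kept without shunt 1 and shunt 2 (1.40, edgeR adjusted p = 0.0210). Shunt against control gave 0.82 without that pair (adjusted p = 0.244). It was lost without shunt 4 (0.68, adjusted p = 0.0649), fetal 2 (0.99, adjusted p = 0.0842), fetal 3 (1.03, adjusted p = 0.0672) or fetal 4 (1.09, adjusted p = 0.0738), and in the fit of only the 2 groups compared (1.11, adjusted p = 0.0607). Scaled by library totals alone the log2 change was 0.19 (adjusted p = 0.707), where the median of all genes was -1.02.

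**Figure D2:**
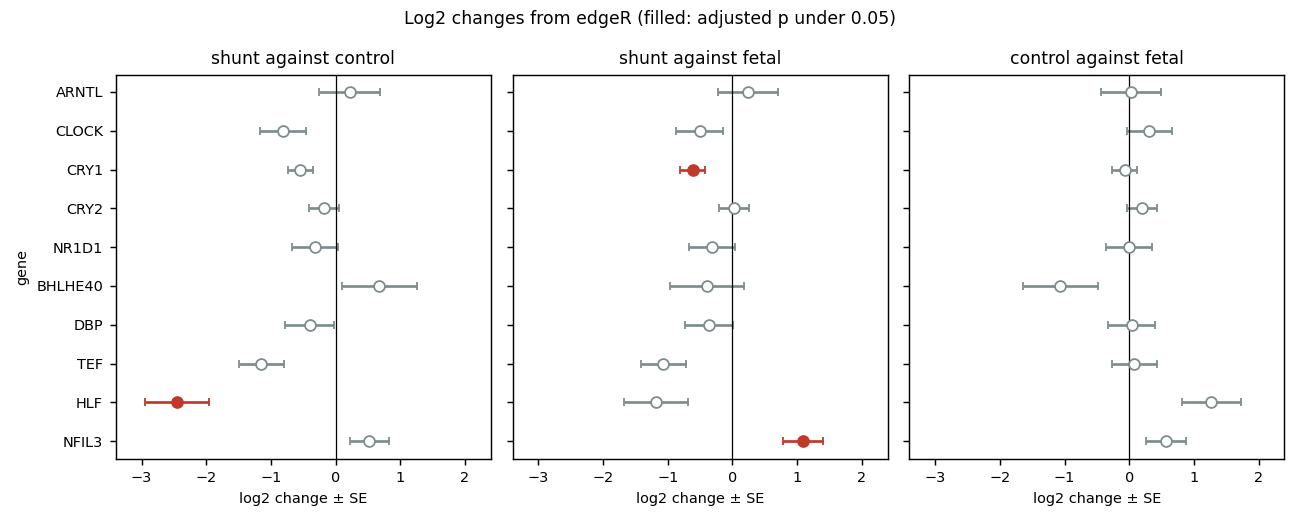
Log2 change (horizontal axis, with its SE as the bar) of each gene in shunt against control, shunt against fetal and control against fetal, from edgeR over all 12 libraries. Filled points are called: HLF at -2.46 in shunt against control, and CRY1 at -0.62 and NFIL3 at 1.09 in shunt against fetal.

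Because activators and their repressor were read in the same library, their count ratio does not depend on how libraries were scaled. The ratio was picked for display after its values were seen. NFIL3 had 2.77, 12.2, 1.92 and 5.01 counts for each TEF count in shunt 1 to 4. Control 1 to 4 had 1.24, 1.19, 0.904 and 1.40, and fetal 1 to 4 had 1.06, 0.636, 0.943 and 0.751. The lowest shunt library, shunt 3, lay above every control and fetal library. HLF counts for each TEF count overlapped between groups, at 0.0227 to 0.143 in shunt, 0.0787 to 0.200 in control and 0.0526 to 0.0844 in fetal libraries, so these ratios give no separate order of HLF and TEF.

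Of the activator dimer, ARNTL (ENSOARG00000007809) varied more than CLOCK within the shunt and control groups, and less than CLOCK within the fetal group. It had 5.80, 6.52, 2.13 and 2.02 CPM in shunt 1 to 4. The 4 control libraries had 3.72, 1.42, 2.07 and 6.61 CPM, and fetal 1 to 4 had 2.80, 3.57, 3.21 and 4.07 CPM. The shunt group fell into a high pair, shunt 1 and shunt 2, and a low pair, shunt 3 and shunt 4, and control 4 was as high as the high pair. The range was 3.22-fold in shunt, 4.64-fold in control and 1.45-fold in fetal libraries, and the SD of log2 CPM lay at percentile 78.5 of all genes in shunt, 95.3 in control and 37.2 in fetal libraries.

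The group means of ARNTL were 4.12 ± 2.38 CPM in shunt, 3.46 ± 2.31 CPM in control and 3.41 ± 0.540 CPM in fetal libraries (SD, n = 4 each). The log2 change was 0.22 ± 0.469 in shunt against control (95% interval -0.78 to 1.22; edgeR adjusted p = 0.791), 0.24 ± 0.470 in shunt against fetal (adjusted p = 0.754) and 0.02 ± 0.463 in control against fetal (adjusted p = 0.990). With shunt 1 and shunt 2 left out the sign turned, to -0.76 in shunt against control (adjusted p = 0.456) and -0.73 in shunt against fetal (adjusted p = 0.381). Leaving out shunt 2 alone gave -0.11 in shunt against control and -0.09 in shunt against fetal, and leaving out control 4 gave 0.73 in shunt against control and -0.48 in control against fetal, none of them called. No direction for ARNTL can be read from these groups.

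CLOCK (ENSOARG00000001602), the partner of ARNTL, had 2.60, 2.11, 1.40 and 1.87 CPM in shunt 1 to 4. In control 1 to 4 it had 3.60, 2.80, 2.37 and 5.15 CPM, and fetal 1 to 4 had 1.98, 1.79, 3.03 and 4.45 CPM. Shunt libraries lay at the low end, but shunt 1 exceeded control 3 and shunt 1 and shunt 2 exceeded fetal 1 and fetal 2. The log2 change was -0.82 ± 0.358 in shunt against control (95% interval -1.58 to -0.05; edgeR adjusted p = 0.152) and -0.51 ± 0.358 in shunt against fetal (adjusted p = 0.341). Control against fetal gave 0.31 ± 0.347 (adjusted p = 0.691). Leaving out shunt 1 and shunt 2 gave -1.11 in shunt against control (adjusted p = 0.233) and -0.80 in shunt against fetal (adjusted p = 0.279). With library totals CLOCK was called in shunt against control (-1.49, adjusted p = 0.0485, median of all genes -0.59) and in shunt against fetal (-1.53, adjusted p = 0.00669, median of all genes -1.02).

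Of the cryptochromes, which repress the ARNTL and CLOCK dimer, CRY1 (ENSOARG00000017816) was the steadier within the shunt group. It had 6.35, 6.87, 6.81 and 6.63 CPM in shunt 1 to 4, a 1.08-fold range. These rest on 93, 78, 224 and 177 counts. Counting error alone is wider than that range, with a 95% interval of 61.7 to 97.3 counts in shunt 2. Control 1 to 4 had 10.7, 9.78, 7.23 and 11.2 CPM, and fetal 1 to 4 had 9.14, 8.25, 11.3 and 12.3 CPM. All shunt libraries lay below all control and fetal libraries, although control 3 was close. The log2 change was -0.62 ± 0.197 in shunt against fetal (95% interval -1.04 to -0.20; edgeR adjusted p = 0.0469) and -0.55 ± 0.197 in shunt against control (95% interval -0.97 to -0.12; adjusted p = 0.0976). Control against fetal gave -0.07 ± 0.194 (95% interval -0.49 to 0.34).

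The CRY1 call lay at the edge of the threshold. In shunt against fetal it was kept in 4 of the 20 alternatives, with log2 changes from -1.62 to -0.50 and adjusted p from 0.00183 to 0.156 over all of them. Of the fits that left out 1 library the call was kept only without control 3 (-0.62, edgeR adjusted p = 0.0410) and was lost without any other library, with adjusted p from 0.0525 to 0.156. Without shunt 1 and shunt 2 the change was as large, -0.62 against fetal (adjusted p = 0.115) and -0.55 against control (adjusted p = 0.264).

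CRY2 (ENSOARG00000002386) had 13.04, 13.6, 11.9 and 6.11 CPM in shunt 1 to 4. In control 1 to 4 the levels were 13.8, 14.5, 11.7 and 10.2 CPM, and fetal 1 to 4 had 12.3, 11.4, 10.0 and 9.87 CPM. Shunt 4 alone lay below the rest, and the groups overlapped. The log2 change was -0.17 ± 0.235 in shunt against control (95% interval -0.68 to 0.33; edgeR adjusted p = 0.657), 0.03 ± 0.235 in shunt against fetal (adjusted p = 0.948) and 0.20 ± 0.233 in control against fetal (adjusted p = 0.699). With both shunt 1 and shunt 2 left out, it was -0.50 against control and -0.29 against fetal, neither of them called.

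NR1D1 (ENSOARG00000013027), the nuclear receptor that represses ARNTL and NFIL3, had 3.07, 1.14, 5.80 and 5.39 CPM in shunt 1 to 4. The 4 control libraries had 5.38, 4.32, 5.52 and 4.30 CPM, and fetal 1 to 4 had 4.36, 4.77, 4.48 and 6.01 CPM. Shunt 1 and shunt 2 lay below every other library, while shunt 3 and shunt 4 lay within or above the control range. The log2 change was -0.31 ± 0.356 in shunt against control (edgeR adjusted p = 0.593) and -0.32 ± 0.357 in shunt against fetal (adjusted p = 0.566), and without shunt 1 and shunt 2 it was 0.17 in both contrasts. Control against fetal gave -0.01 ± 0.353 (adjusted p = 0.996). In mammals NR1D1 overlaps THRA, a thyroid hormone receptor gene, on the opposite strand. The libraries were stranded, but the sources used here do not say whether counting used strand. Whether reads of that pair of genes were told apart is thus not known.

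BHLHE40 (ENSOARG00000007840), also called DEC1, is an E-box repressor of the clock that also responds to hypoxia and stress in many cell types. It had 3.89, 11.0, 14.9 and 28.5 CPM in shunt 1 to 4. In control 1 to 4 it had 6.82, 10.3, 11.1 and 8.47 CPM, and fetal 1 to 4 had 45.4, 12.4, 8.48 and 10.2 CPM. Single libraries set the group means, fetal 1 at the top and shunt 4 next. The log2 change was 0.68 ± 0.577 in shunt against control (edgeR adjusted p = 0.458), -0.39 ± 0.572 in shunt against fetal (adjusted p = 0.673) and -1.07 ± 0.577 in control against fetal (adjusted p = 0.353). Without fetal 1 control against fetal was -0.16 (adjusted p = 0.921) and shunt against fetal 0.51 (adjusted p = 0.494). Without shunt 1 and shunt 2 shunt against control was 1.23 (adjusted p = 0.374) and shunt against fetal 0.17 (adjusted p = 0.900).

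The labels give no sampling time, so whether library differences look like time of day was examined from the genes themselves. In a running clock ARNTL moves roughly with NFIL3 and against NR1D1, DBP, TEF and HLF over the day, as background from rodent tissues. The plan of the check also took CLOCK and CRY1 to move with ARNTL. Pearson's r and Spearman's rho of log2 CPM, taken as deviations from each group's mean over the 12 libraries, were computed between ARNTL and the other 9 genes. All 13824 pairings of libraries within groups gave exact two-sided permutation p-values, and none of the 9 relations passed Benjamini-Hochberg adjustment. Because group means were removed, this check covers differences within groups only. It cannot see a difference in sampling time between the shunt, control and fetal groups.

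The strongest relation was that of ARNTL with CLOCK, its dimer partner (r = 0.67, exact permutation p = 0.00868, adjusted p = 0.0781; rho = 0.61, exact permutation p = 0.0256, adjusted p = 0.115). It was 0.58 without control 2 and control 4, the libraries farthest from the median of ARNTL, and 0.64 without shunt 1 and shunt 2. ARNTL ran against BHLHE40 (r = -0.54, exact permutation p = 0.0247, adjusted p = 0.111; rho = -0.59, exact permutation p = 0.0243, adjusted p = 0.115), with -0.68 without control 2 and control 4 and -0.32 without shunt 1 and shunt 2. For NR1D1 r was -0.56 (exact permutation p = 0.145, adjusted p = 0.349) and rho -0.45 (exact permutation p = 0.247, adjusted p = 0.555), with -0.75 without control 2 and control 4 and 0.07 without shunt 1 and shunt 2.

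The remaining relations did not pass the test either. The r of ARNTL with TEF was -0.51, with DBP -0.37, with HLF -0.24, with NFIL3 -0.17, with CRY2 0.20 and with CRY1 0.35, with exact permutation p from 0.155 to 0.764, and rho lay between -0.35 and 0.42 with exact permutation p from 0.158 to 0.822. In the absence of shunt 1 and shunt 2 the sign turned for TEF (0.10), HLF (0.39), NFIL3 (0.17) and CRY2 (-0.36). Without control 2 and control 4 r was -0.67 for TEF, -0.18 for DBP and -0.39 for HLF. The opposition of ARNTL to NR1D1 and TEF thus rested on shunt 1 and shunt 2, which also had the highest mitochondrial shares, and the opposition to DBP rested on control 4 (0.03 without it). Thus none of the 9 relations with ARNTL passed the test, which does not show that sampling times were alike. Relations among the other genes were not tested. Those with the largest absolute r over the 12 libraries were picked after the values were seen. Here r was 0.78 for CLOCK with CRY1 (0.88 without shunt 1 and shunt 2). It was -0.76 for CRY1 with DBP (-0.78 without that pair) and 0.95 for NR1D1 with TEF (0.38 without it). All the remaining relations among these genes had r from -0.54 (CRY2 with NFIL3) to 0.67 (BHLHE40 with NFIL3).

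**Figure D3:**
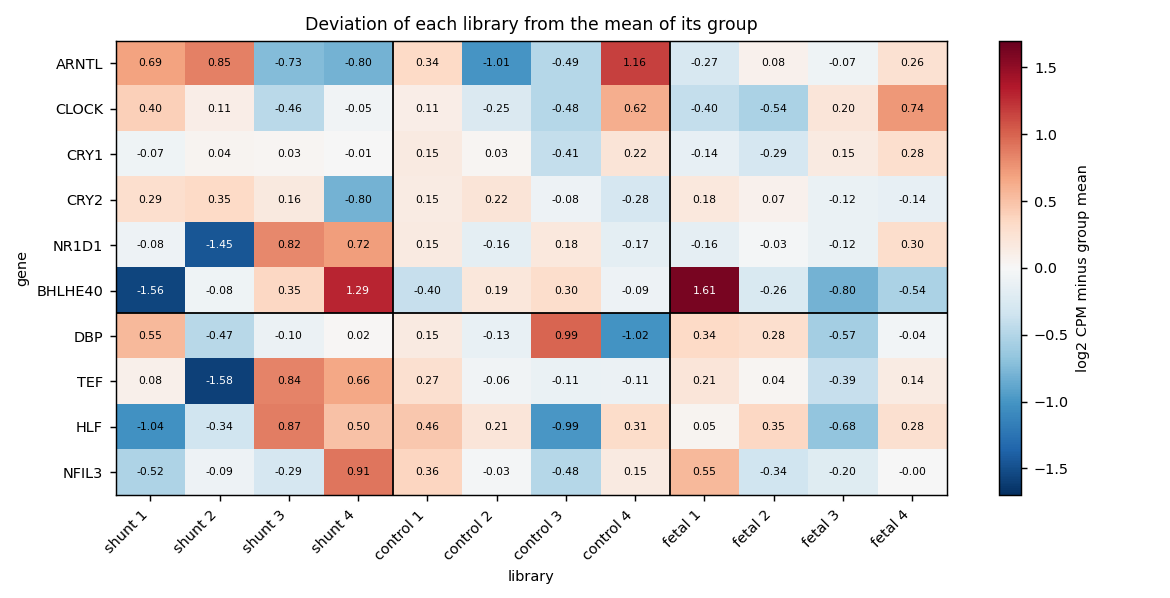
Deviation of each library (columns, grouped as shunt, control and fetal) from the mean log2 CPM of its group for each gene (rows, core clock above the line and output genes below it). ARNTL is high in shunt 1, shunt 2 and control 4, and DBP is low in control 4. Among these, NR1D1 and TEF lie far below their group mean in shunt 2 only (-1.45 and -1.58). In CPM, shunt 1 also lies below every control and fetal library for both genes.

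Count ratios within a library showed the same patchwork. ARNTL had 1.10, 2.55, 0.636 and 0.557 counts for each DBP count in shunt 1 to 4. Control 1 to 4 had 0.775, 0.360, 0.240 and 3.15, and fetal 1 to 4 had 0.480, 0.636, 1.04 and 0.908. Control 4, at 3.15 (exact 95% interval 2.35 to 4.26, counting error only), and control 3, at 0.240 (0.184 to 0.309), were the extremes of all libraries, so that libraries of the same group and age range stood at both ends.

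For each NR1D1 count ARNTL had 1.89, 5.69, 0.366 and 0.375 counts in shunt 1 to 4, 0.691, 0.330, 0.375 and 1.54 in control 1 to 4, and 0.643 to 0.748 in fetal libraries. Shunt 1, shunt 2 and control 4 were thus high for ARNTL against both genes. In the control group ARNTL spanned a 4.64-fold range and DBP a 4.11-fold range, while NR1D1, whose transcript cycles strongly in rodent heart, spanned 1.28-fold (percentile 28.2 of all genes by SD of log2 CPM). In fetal libraries the ratio of ARNTL to NR1D1 was nearly constant.

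TEF and NR1D1 were both lowest in shunt 2 and next lowest in shunt 1. In shunt 3 and shunt 4 TEF lay below every control library and NR1D1 did not. Their ratio, chosen after the values were seen, was even across the shunt group. TEF had 1.96, 1.62, 1.76 and 1.67 counts for each NR1D1 count in shunt 1 to 4. The 4 control libraries had 3.39, 3.37, 2.54 and 3.27, and fetal 1 to 4 had 3.77, 3.06, 2.42 and 2.61. All shunt libraries, shunt 1 and shunt 2 included, lay below all control and fetal libraries. The interval of shunt 2, which rests on 21 TEF and 13 NR1D1 counts, was wide (0.772 to 3.51), and that of shunt 1 was 1.35 to 2.87. Those of shunt 3 (1.47 to 2.11) and shunt 4 (1.35 to 2.06) also overlapped that of fetal 3 (1.92 to 3.08).

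**Figure D4:**
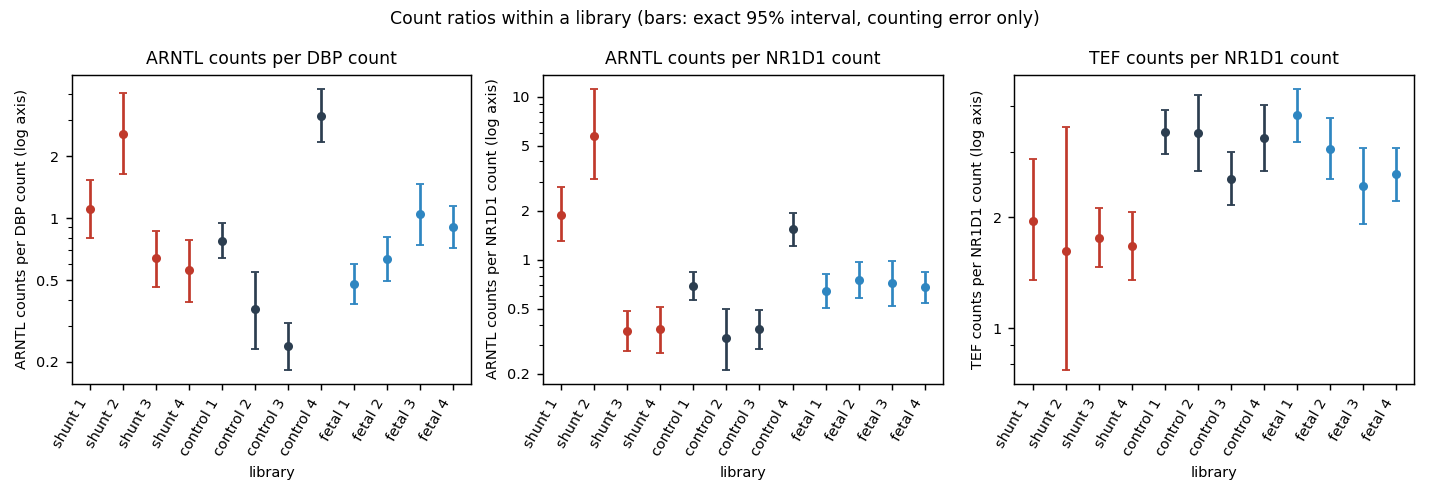
Counts of ARNTL per DBP count, of ARNTL per NR1D1 count and of TEF per NR1D1 count (log axes) in each shunt, control and fetal library, with exact 95% intervals that cover counting error only. The ARNTL ratios have shunt and control libraries at both ends, and the TEF ratio is 1.62 to 1.96 in shunt, 2.54 to 3.39 in control and 2.42 to 3.77 in fetal libraries.

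Genes most like ARNTL and DBP were sought among the other 478 tested genes with a symbol, by Pearson's r of the same deviations over the 12 libraries, as a description. Closest to ARNTL were ABCG2 (0.87), SLC11A1 (0.78) and IDH1 (0.77), and most opposed were IGFBP3 (-0.85), TGFB1 (-0.85) and CDKN1A (-0.82). Without shunt 1 and shunt 2 these r values were 0.76 for ABCG2, 0.63 for SLC11A1, 0.72 for IDH1, -0.80 for IGFBP3, -0.79 for TGFB1 and -0.75 for CDKN1A. Closest to DBP were ST7 (0.78), MX2 (0.77) and NUDT16 (0.76), and among the most opposed were CRY1 (-0.76) and FOXO3 (-0.71). None of the other clock and output genes was among the 3 closest to ARNTL or to DBP.

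Other genes of the pathway were scarce among the named rows. Of 13 other clock genes (the PER family, NPAS2, NR1D2, BHLHE41 and others) 2 were found by name, RORB and TIMELESS, and only TIMELESS passed the filter. TIMELESS, which also serves DNA replication in mammals, averaged 3.75 ± 3.24 CPM in shunt, 1.97 ± 0.513 CPM in control and 5.97 ± 1.80 CPM in fetal libraries (SD, n = 4 each). The shunt mean rested on shunt 1, which had 8.60 CPM, against 2.11, 2.01 and 2.29 CPM in shunt 2 to 4. Its groups did not overlap in control against fetal, where the log2 change was -1.60 ± 0.446 (edgeR adjusted p = 0.0517), and no contrast was called.

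Of the kinases, phosphatases and ubiquitin ligase subunits that act on clock proteins, GSK3B, SKP1 and PRKAA2 are described, and none of them was called in any contrast. PRKAA2, a catalytic subunit of the energy-sensing kinase AMPK, averaged 20.4 ± 8.35 CPM in shunt, 31.9 ± 8.31 CPM in control and 30.7 ± 6.25 CPM in fetal libraries (SD, n = 4 each). Its log2 change was -0.64 ± 0.278 in shunt against control (edgeR adjusted p = 0.151) and -0.59 ± 0.278 in shunt against fetal (adjusted p = 0.157). GSK3B, a kinase that phosphorylates several clock proteins, gave -0.10 ± 0.187 in shunt against control (adjusted p = 0.756), and SKP1, a core subunit of SCF ubiquitin ligases, gave -0.24 ± 0.196 (adjusted p = 0.446).

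Of 16 output genes described in rodent heart 2 were found, CDKN1A and LIPE. LIPE, hormone-sensitive lipase, was called lower in shunt against control, at 1.37 ± 0.932 CPM in shunt and 5.11 ± 3.06 CPM in control libraries (log2 change -1.90 ± 0.496, edgeR adjusted p = 0.0487). The call held in 9 of 20 alternatives and ended without any 1 of shunt 1, shunt 2, control 1, control 2, control 4 and the fetal libraries (adjusted p from 0.0583 to 0.139), and without both shunt 1 and shunt 2 (-2.18, adjusted p = 0.0936). LIPE is also an adipocyte gene, and 2 of 5 adipocyte markers were tested, FABP4 and ADIPOQ. FABP4 had 3.30 to 113 CPM in shunt and 0.469 to 8.28 CPM in control libraries. ADIPOQ had 0 to 1.30 CPM in shunt and 0.165 to 0.459 CPM in control libraries. Neither was called in shunt against control (edgeR adjusted p = 0.0713 and 0.694), and the part of adipocytes in the LIPE result was not tested. CDKN1A, a cell cycle inhibitor, was not called in any contrast (adjusted p from 0.0587 to 0.817).

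Glucocorticoids reset peripheral clocks, and of 10 glucocorticoid-responsive genes 2 were found, CDKN1A and the receptor gene NR3C1. NR3C1 averaged 31.7 ± 0.676 CPM in shunt, 42.5 ± 7.72 CPM in control and 53.5 ± 7.44 CPM in fetal libraries (SD, n = 4 each), and the shunt libraries overlapped neither other group. It was lower in shunt against fetal (log2 change -0.75 ± 0.165, edgeR adjusted p = 0.00873), a call kept in all 20 alternatives, and was not called in shunt against control (-0.42 ± 0.164, adjusted p = 0.117).

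**Figure D5:**
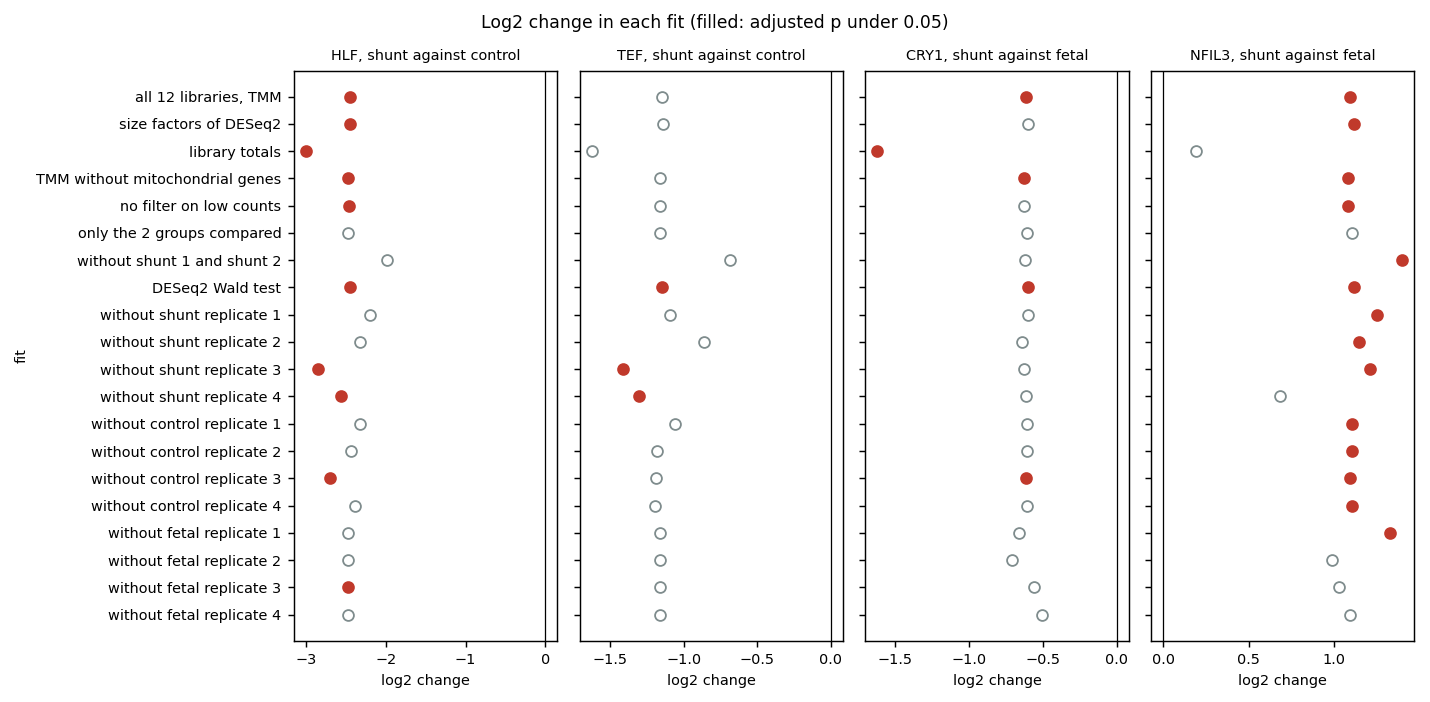
Log2 change of HLF and TEF in shunt against control and of CRY1 and NFIL3 in shunt against fetal (horizontal axes) under other scalings, filters, tests and sets of libraries (rows). Filled points have an adjusted p under 0.05. The sign is the same in every row, and HLF is at -1.99 and TEF at -0.69 without shunt 1 and shunt 2.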

How the data were processed

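The authors deposited raw counts per gene for 12 right ventricular libraries, called total counts per the file headers. Per the labels' protocols, libraries were made with a stranded mRNA kit. The sources used here name no aligner, counter, genome build or strand setting. Gene names came from the table, so no sequences or coordinates are given.

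Counts were analysed in R 4.3.3 with edgeR 4.0.16: filterByExpr by group kept 13065 genes, of which 479 have a symbol, with TMM scaling and a robust quasi-likelihood fit of the 3 groups over all 12 libraries. Genes with a Benjamini-Hochberg adjusted p under 0.05 were called. The SE was taken as the absolute log2 change over the root of F. Log2 CPM used a prior count of 2. Adjusted p-values are edgeR's unless named otherwise. DESeq2 1.42.0, other scalings, no filter, fewer libraries and each library left out were the alternatives. The procedure was tested on simulated data. No libraries of a group agreed within sampling noise, with a chi-square per gene of at least 23.8. Samples were grouped by their titles.

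The genes, lists and tests were chosen with earlier results of these data known. All 10 genes are described in every contrast, called or not, with the tested members of 4 pathway lists and, for ARNTL and DBP, the 3 genes most and 3 least like them, apart from 1 gene that is not reported here. Counts of 42 to 2852 per gene and group limit precision, and intervals on counts cover counting error only.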

Additional observations from a re-analysis of the deposited data

Results flagged for a closer look

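In the 30 sets of 4 libraries formed by 10 genes and 3 groups, 2 single libraries lay far from the other 3 of their group by Dixon's criterion at the 95% level. Chance alone marks about 1 in 20 sets. BHLHE40 was at 45.4 CPM in fetal 1, where the gap to the next library was 0.895 of the group's range, and the other fetal libraries had 8.48 to 12.4 CPM. TEF was at 18.3 CPM in control 1, with a gap of 0.872 of the range, and the other control libraries had 14.0 to 14.6 CPM.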

How the results depend on the processing

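Of 600 recomputed log2 changes of the 10 genes, 508 kept their direction and their side of the threshold, 33 lost a call, 18 gained one and 41 changed sign; of 135 recomputed correlations with ARNTL 123 kept both, 1 passed the threshold and 11 changed sign. Causes were not tested.

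With library totals, 3 genes were called in shunt against control and 7 in shunt against fetal (7933 of all genes). Signs turned for ARNTL (-0.61 shunt against control, -0.97 shunt against fetal, -0.36 control against fetal), CRY2 (-1.12 shunt against fetal, -0.22 control against fetal), and in control against fetal for CLOCK (-0.045), DBP (-0.46) and TEF (-0.35), and correlations for CRY2 (-0.18), HLF (0.059) and NFIL3 (0.018). With DESeq2's size factors NR1D1 in control against fetal was 0.00038, and with its Wald test 0.00048. The Wald test called 2 of the 10 genes in shunt against control (1981 of all) and 1 in control against fetal (1248 of all). Without a filter 1 was called in shunt against fetal.

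In fits of only the 2 groups compared, 0 genes were called in shunt against control (4 of all), 0 in shunt against fetal (1073) and 1 in control against fetal (1913). Without shunt 1 and shunt 2, 0 were called in shunt against control (64 of all), 1 in shunt against fetal (1314) and 1 in control against fetal (1672). Signs then turned for ARNTL (-0.76 shunt against control, -0.73 shunt against fetal), NR1D1 (0.17 shunt against control, 0.17 shunt against fetal, 3.7e-05 control against fetal), CRY2 (-0.29) and BHLHE40 (0.17) in shunt against fetal, and correlations for CRY2 (-0.36), NR1D1 (0.074), TEF (0.10), HLF (0.39) and NFIL3 (0.17).

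Same-numbered libraries of different groups did not deviate together (12 pairs, r from -0.19 to 0.15, 3 over 0.1). This gave no sign that the numbers pair samples, but it cannot exclude pairing. With the replicate number as a block, 0 of the genes were called in shunt against control (61 of all) and 1 in shunt against fetal, and signs turned for ARNTL (-0.075) and DBP (-0.058) in control against fetal and CRY2 (-0.017) in shunt against fetal. In 3 of the 12 pairs the same-numbered library was the best match.

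Leaving out 1 library gave 0 to 2 calls among the genes in shunt against control and 0 to 2 in shunt against fetal; among all genes 6 to 2169 in shunt against control, without control 2 and shunt 4, 957 to 2855 in shunt against fetal, without fetal 4 and shunt 4, and 259 to 886 in control against fetal, without fetal 1 and shunt 1. Log2 changes that changed sign ranged, in shunt against control, from -0.11 to 0.73 for ARNTL, -0.29 to 0.029 for CRY2 and -0.65 to 0.027 for DBP. In shunt against fetal they ranged from -0.085 to 0.47 for ARNTL, -0.092 to 0.23 for CRY2 and -0.94 to 0.51 for BHLHE40. In control against fetal they ranged from -0.48 to 0.30 for ARNTL, -0.15 to 0.050 for CRY1, -0.067 to 0.13 for NR1D1, -0.39 to 0.30 for DBP and -0.013 to 0.17 for TEF. Correlations with ARNTL ranged from 0.54 to 0.76 for CLOCK, past the threshold without fetal 2, -0.36 to 0.50 for CRY2, -0.56 to 0.030 for DBP and -0.30 to 0.21 for NFIL3.

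HLF in shunt 1 and shunt 2 rests on 2 and 3 counts, so its level there is hardly measured.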
